A study of Mus musculus with 9 samples.

Results

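The levels of 10 antioxidant genes, most of them known targets of the transcription factor NRF2, were followed in the nuclei of mouse hearts by single-nucleus RNA sequencing (sNuc-seq). The genes were Nqo1, Gclc, Gclm, Gsr, Txnrd1, Srxn1, Slc7a11, Osgin1, Sod2 and Gpx4. They were chosen by name from the 23747 genes in the deposited tables, but with earlier results of these data known. C57BL/6 mice of 8 weeks were placed in 3 groups, with 3 hearts sequenced in each. All 9 mice were gavaged for 7 days before surgery. Sham mice received vehicle and had the needle passed without tying the artery. I/R mice received vehicle and then 30 min of ligation of the left anterior descending coronary artery, followed by 24 h of reperfusion. The SBP group was given Shexiang Baoxin Pill (SBP, named MUSKARDIA in the labels), a traditional Chinese medicine, over the same days and then the same ligation and reperfusion. No group received SBP without ligation. Nuclei came from frozen pieces of heart, taken in all mice, as the study describes, from below the site of ligation.

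NRF2, encoded by Nfe2l2, is held at a low level by KEAP1, a sensor protein with reactive cysteines that marks it for degradation. Oxidants and electrophiles disable KEAP1, and NRF2 then binds antioxidant response elements together with small MAF proteins and drives genes that make glutathione, return oxidised thiols to their reduced form and clear reactive compounds. The oxygen that returns to an ischemic heart at reperfusion is a textbook source of reactive oxygen species, and this pathway is among the defences that cells have against it. Because NRF2 is regulated mainly as a protein, target transcripts are commonly read in place of its own transcript.

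The 10 genes stand for different parts of this defence. Gclc and Gclm encode the catalytic and modifier subunits of glutamate-cysteine ligase, the enzyme of the rate-limiting step of glutathione synthesis, and Slc7a11 encodes the cystine carrier that supplies it. Gsr (glutathione reductase), Txnrd1 (cytosolic thioredoxin reductase) and Srxn1 (sulfiredoxin, which restores oxidised peroxiredoxins) regenerate thiols. Nqo1 reduces quinones, and Osgin1 is an oxidative stress-induced growth inhibitor. Sod2, the mitochondrial manganese superoxide dismutase, and Gpx4, the peroxidase that removes lipid hydroperoxides, act on oxidants directly. These last genes are less exclusively tied to NRF2 (Sod2 is also known to respond to inflammatory signals).

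On GRCm38, the genes called below lie at chr3:122245557-122270732 (Gclm), chr8:33652523-33698163 (Gsr), chr10:82833951-82897712 (Txnrd1), chr2:152105516-152111376 (Srxn1), chr9:77754535-77794485 (Gclc) and chr17:13006846-13040063 (Sod2), all on the plus strand. The core of the antioxidant response element, TGACNNNGC, was searched on both strands in the RefSeq promoter windows of GRCm38.p6, which run from 250 bases before to 50 bases after a gene's start. Of the 10 genes, 8 had windows. The core was present in 3 of these 8 genes (Gclm, Txnrd1 and Srxn1), against 14% of all 27025 genes with windows, or 3 of 13 windows (23.1%) against 12.4% of 32851. The stretches of Gclm and Txnrd1 that hold it are shown because these genes were among those called below. Each runs from position -150 to -51, counted from the start site, in the direction of the gene, with the match in capitals. In both it lies on the other strand and so reads as GCNNNGTCA. The Gclm stretch is on the plus strand of chr3:122245407-122245506, just before the gene, with the match at positions -134 to -126. The Txnrd1 stretch is on the plus strand of chr10:82859056-82859155, inside the gene and before the second of its 3 listed starts, with the match at -92 to -84. The match of Srxn1 fell after the start site. A match is only a sequence of these letters, and binding was not measured.
Gclm: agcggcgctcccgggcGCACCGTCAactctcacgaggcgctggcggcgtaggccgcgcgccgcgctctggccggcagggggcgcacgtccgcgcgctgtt
Txnrd1: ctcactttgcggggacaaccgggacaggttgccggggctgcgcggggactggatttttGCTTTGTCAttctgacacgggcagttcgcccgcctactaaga

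The 9 libraries held 49171 nuclei and 135423853 UMIs (unique molecular identifiers, each standing for 1 captured transcript), with 4576 to 6418 nuclei and 10329520 to 18205985 UMIs per library. A total of 580 nuclei carried a barcode that also occurred in another library. Nuclei were clustered and named from marker genes, which gave 10533 cardiomyocytes, 13450 endothelial cells, 14309 fibroblasts, 9567 myeloid cells, 772 T cells, 338 B cells and 117 Schwann cells. Every marker of a type was higher in that type than in the other nuclei. No cluster was named for smooth muscle cells and pericytes. Their 9 markers nonetheless scored highest in 11.4% of the nuclei in the fibroblast clusters, against 1.39% to 4.49% in the other 3 main types. Fibroblast sums may therefore hold such cells. Of the 14309 fibroblast nuclei, 8384 scored highest for the fibroblast markers. Over all nuclei, 78.9% had the same name by marker score. Myeloid cells numbered 387 to 797 nuclei per sham heart, 1034 to 2301 per I/R heart and 655, 1609 and 690 in the SBP hearts. Libraries and groups differed in which clusters made up a type. I/R replicate 1 stood apart, since 73.7% of its cardiomyocytes lay in the cluster with Mhrt among its leading genes, where sham cardiomyocytes lay, whereas 96.6% to 99.8% of those of the other I/R hearts lay in the cluster with Ankrd1 and Nppb among its leading genes. The myeloid cluster led by Cd163 held 89.4% to 94.1% of sham myeloid nuclei but 15.5% to 47.7% of those in I/R, where the cluster with Gpnmb and Arg1 held 45.4% to 78.5%. In SBP replicates 1, 2 and 3 the Cd163 cluster held 322, 382 and 340 nuclei, and the Gpnmb and Arg1 cluster 307, 1111 and 314. A fibroblast cluster led by Tnc held 2 to 4 nuclei per sham heart and 131 to 444 per I/R heart.

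The cell types were compared first. For this comparison UMIs were summed per heart and type and expressed as CPM (a gene's UMIs as a share of all UMIs of that sum, on the usual CPM scale) on 1 TMM scale over all types, and a type needed at least 20 nuclei in a heart. Nqo1 was highest in cardiomyocytes, at 57.4 ± 27.8 CPM (SD, n = 9), followed by 14.1 ± 4.05 CPM in endothelial cells, and was near 5 CPM in fibroblasts (5.30 ± 1.52) and myeloid cells (5.10 ± 2.85). Sod2 was also highest in cardiomyocytes, at 181 ± 25.0 CPM, against 77.5 ± 19.7 in endothelial cells, 72.4 ± 72.9 in myeloid cells and 70.6 ± 24.5 in fibroblasts. Slc7a11 had another order, with 78.4 ± 22.6 CPM in fibroblasts, 56.3 ± 122 in myeloid cells, 6.52 ± 7.76 in endothelial cells and 3.28 ± 3.10 in cardiomyocytes. Its myeloid SD exceeded its mean because a single heart, I/R replicate 2, reached 380 CPM while the median heart was at 15.8. The scale over all types bears on these orders, since it multiplied cardiomyocyte levels by 1.49 to 1.73 and those of the other 3 main types by 0.962 to 1.1. As plain shares of total UMIs, cardiomyocytes were still highest for Nqo1 (35.6 ± 17.6 CPM, endothelial cells 13.6 ± 3.63) and Sod2 (112 ± 17.6 CPM, endothelial cells 75.9 ± 20.4), by smaller margins.

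The cardiomyocyte against endothelial difference of Nqo1 was 1.84 on the log2(CPM + 1) scale (SD 0.59), that of Sod2 was 1.24 (SD 0.35), and the myeloid against endothelial difference of Slc7a11 was 1.70 (SD 1.13), each in the same direction in 9 of 9 hearts. These 3 reached 0.00391, the smallest p that an exact two-sided sign-flip permutation test over 9 hearts can give. After adjustment over the 50 neighbouring pairs of the orders tested, they had an exact permutation adjusted p of 0.0651. By this test 0 of the 50 pairs passed 0.05, although 10 had an unadjusted p under 0.05. A pair at this smallest p can pass only where enough other pairs are as low, so the test left little room for a call and does not show that neighbours are alike. With other scalings, 6 pairs (total UMIs) or 5 pairs (means over nuclei) passed.

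For the other genes the place of cardiomyocytes depended on the scale. On the scale over all types, Gclc was at 60.9 ± 16.4 CPM in cardiomyocytes, 61.0 ± 15.3 in fibroblasts, 57.6 ± 12 in endothelial cells, 46.6 ± 10.7 in myeloid cells and 63.5 ± 22.2 in T cells. By total UMIs it was at 37.7 ± 10.7 CPM in cardiomyocytes, below fibroblasts (58.2 ± 14.4) and endothelial cells (56.2 ± 12.8), so the order turned. Gclm was at 59.5 ± 32.6 CPM in cardiomyocytes and between 31.6 ± 6.94 and 36.6 ± 3.90 in the other 3 main types, but in sham hearts alone cardiomyocytes (12.5, 42.2 and 35.0 CPM) overlapped endothelial cells (30.5, 36.9 and 30.8 CPM). By total UMIs the gap was nearly gone, at 36.9 ± 20.4 CPM in cardiomyocytes and 35.6 ± 2.92 in endothelial cells. Gsr ran from 64.1 ± 16.8 CPM in cardiomyocytes to 106 ± 84.4 in myeloid cells. All these means pool the 3 groups, and in sham hearts alone the order of Gsr was another, with 51.9, 26.5 and 30.0 CPM in myeloid cells against 42.0 to 51.2 in cardiomyocytes and 51.8 to 58.2 in endothelial cells. Txnrd1 ran from 39.5 ± 10.3 CPM in endothelial cells to 75.2 ± 24.4 in cardiomyocytes, but by total UMIs cardiomyocytes (46.7 ± 16.2 CPM) were below myeloid cells (69.0 ± 27.7) and fibroblasts (54.3 ± 16.8). Both reductases were detected in every heart in each of these types. Srxn1 (4.43 to 9.45 CPM) and Osgin1 (4.86 to 9.36 CPM) were scarce in all 4 main types. Gpx4 ran from 78.9 ± 14.6 CPM in myeloid cells through 86.0 ± 10.7 in fibroblasts and 110 ± 22.1 in cardiomyocytes to 124 ± 21.1 in endothelial cells. By total UMIs endothelial cells were again highest of the 4 (121 ± 23.6 CPM), and cardiomyocytes lowest (68.3 ± 15.6), below myeloid cells (77.4 ± 13.8). Lymphocyte levels rest on few transcripts. In T cells (9 hearts) totals ran from 1 UMI of Srxn1 to 105 of Gpx4, and in B cells (7 hearts) from 0 to 49.

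**Figure D1:**
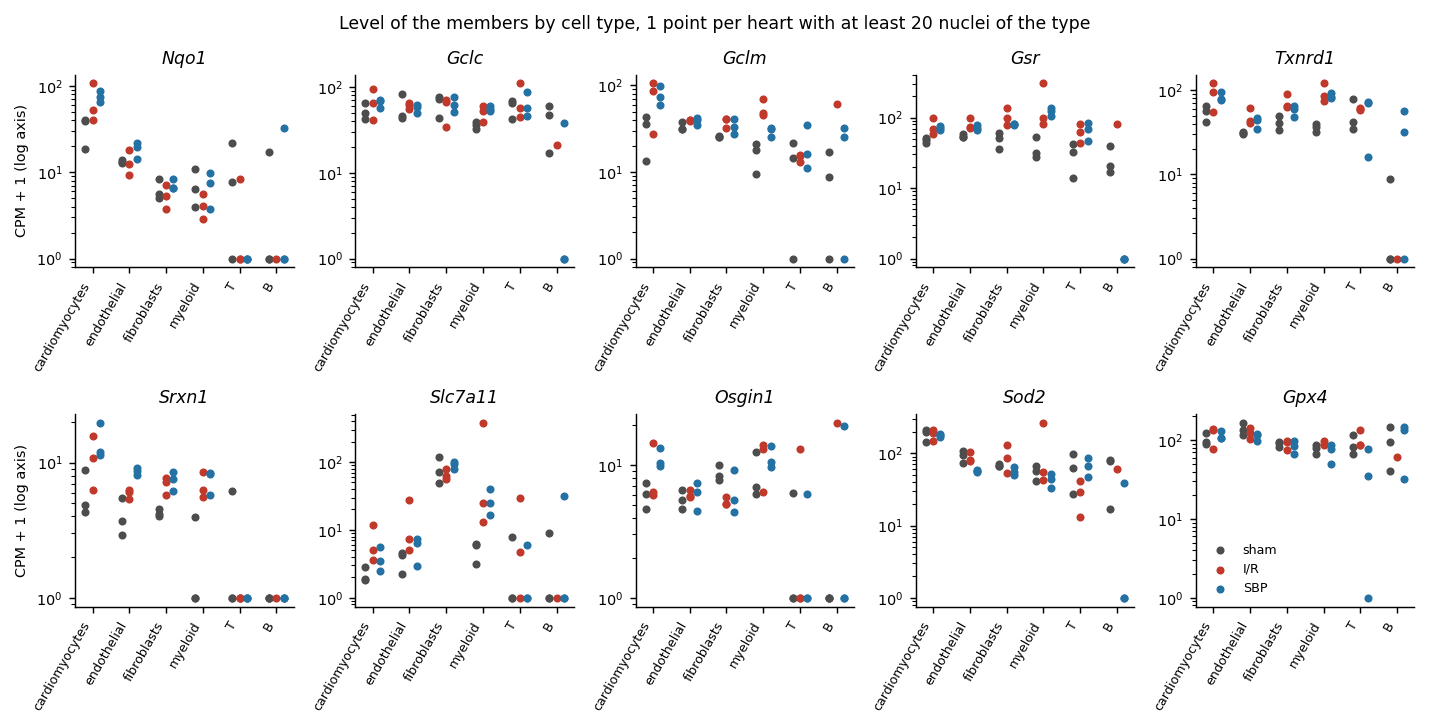
Level of the 10 genes in 6 cell types, as CPM + 1 on a log axis after scaling over all types; each point is 1 heart with at least 20 nuclei of the type, coloured by group. Nqo1 and Sod2 are highest in cardiomyocytes and Slc7a11 in fibroblasts, with 1 I/R heart at 380 CPM of Slc7a11 in myeloid cells.

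I/R was then compared with sham within each cell type, to ask whether these genes had changed 24 h after reperfusion. CPM below are scaled within a cell type, so they are not on the scale used between types. A gene was called where the limma adjusted p, over all genes tested in that type, was at most 0.05 and the absolute log2 fold change exceeded 0.25. Fold changes are on the log2(CPM + 1) scale, which understates the change of scarce genes.

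Myeloid cells had the most of these genes called, and also the largest share of all genes called. Of the 9 genes tested there, Gclm, Gsr, Txnrd1 and Srxn1 were called higher in I/R and 0 lower. Over all genes, 17.6% were called in this comparison and 9.82% were called higher. Srxn1 and Slc7a11 passed the filter on low values through 0 sham hearts, so they were tested only because they were higher with injury. Of the other 7 genes, 3 were called, and their median log2 fold change was 0.67, against 0.07 over all genes tested. All I/R hearts lay above all sham hearts for 6 of the 9 genes, Srxn1 and Slc7a11 among them, against 20.1% of all genes. Nqo1 did not pass the filter on low values (1.87 to 9.85 CPM over the 9 hearts) and was not tested.

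For glutathione synthesis, Gclm stood at 8.20, 16.2 and 19.5 CPM in the sham hearts and at 67.3, 45.8 and 43.9 CPM in the I/R hearts. The sham values rest on 5, 19 and 27 UMIs. Every I/R heart lay above every sham heart, and the log2 fold change was 1.82 (SE 0.30, limma adjusted p 0.00154). Its partner Gclc, the catalytic subunit, was at 34.3 ± 3.33 CPM in sham and 48.7 ± 10.5 CPM in I/R (SD, n = 3), a log2 fold change of 0.47 (SE 0.20, limma adjusted p 0.12). The cystine carrier Slc7a11 was at 4.92, 5.12 and 2.17 CPM in sham and at 23.7, 370 and 11.7 CPM in I/R. Behind its sham values are only 3, 6 and 3 UMIs. All I/R hearts were above all sham hearts, but replicate 2 was far above the other two, and the log2 fold change of 3.33 (SE 1.10) had a limma adjusted p of 0.0711. Without I/R replicate 2 it was 1.86 with a limma adjusted p of 0.0198, and without I/R replicate 3 it was 4.31 with 0.0335. Over all alternatives its adjusted p ran from 0.0198 to 0.151. In I/R replicate 2 the gene was also more frequent in endothelial cells and cardiomyocytes, with 0.765 UMIs per myeloid nucleus, 0.0442 per endothelial nucleus and 0.037 per cardiomyocyte. In the other I/R hearts these were 0.0261 to 0.0495, 0.00689 to 0.0099 and 0.0105 to 0.0148. Fibroblasts did not share this, with 0.144 UMIs per nucleus in replicate 2 and 0.216 and 0.134 in replicates 1 and 3.

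Of the thiol-regenerating enzymes, Gsr was at 50.9, 25.6 and 29.6 CPM in sham and at 80.0, 298 and 97.7 CPM in I/R. The groups did not overlap, and the log2 fold change was 1.94 (SE 0.45, limma adjusted p 0.0187). This call was lost without sham replicate 2 (adjusted p 0.0705) or sham replicate 3 (0.0522), within a range of 0.00586 to 0.153 over all alternatives. Txnrd1 was at 37.7, 29.8 and 35.4 CPM in sham and at 83.7, 117 and 72.5 CPM in I/R, with every I/R heart above every sham heart (log2 fold change 1.36, SE 0.20, limma adjusted p 0.000811). Srxn1 was at 0, 0 and 2.89 CPM in sham and at 7.50, 4.47 and 5.21 CPM in I/R. The difference was called (log2 fold change 2.07, SE 0.59, limma adjusted p 0.0294), but it rests on 4 UMIs in sham and 12 to 36 UMIs in each I/R heart. The 0 UMIs of sham replicates 1 and 2 allow up to 5 and 2.75 CPM, counting error only. Srxn1 also passed the filter through 1 I/R and 2 SBP hearts, so it had to be higher with injury to be tested at all, and its call was lost with means over nuclei (adjusted p 0.0599) and without sham replicate 1 (0.0712) or sham replicate 2 (0.0758), within a range of 0.00649 to 0.0758 over the 11 alternatives in which it passed the filter.

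Osgin1, Sod2 and Gpx4 were not called in myeloid cells. Their log2 fold changes were 0.40 (SE 0.40), 0.67 (SE 0.59) and 0.26 (SE 0.21). Sod2 stood at 258 CPM in I/R replicate 2 and at 41.2 and 53.9 CPM in the other I/R hearts, against 39.4 to 65.8 CPM in sham, so that only replicate 2 lay outside the sham range.

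The myeloid clusters differed in these genes, and their proportions changed with injury. In I/R, Txnrd1 was at 93.8 to 110 CPM in the cluster with Gpnmb and Arg1 and at 30.4 to 110 CPM in the cluster led by Cd163 (here scaled to the UMIs of the cluster). Gclm was at 45.6 to 73.1 and 32.5 to 40.0 CPM. Gsr was far higher, at 768 to 1130 CPM, in a small cluster led by neutrophil genes (Retnlg, S100a8 and S100a9) that held 0.826% to 5.55% of I/R myeloid nuclei and 1 sham nucleus in all. Most Gsr UMIs lay elsewhere. Of 384, 866 and 225 myeloid Gsr UMIs in I/R replicates 1, 2 and 3, the Gpnmb and Arg1 cluster held 325, 677 and 111. The neutrophil cluster held 17, 86 and 40, from 19, 78 and 51 nuclei. Its highest CPM, in I/R replicate 1, thus rests on 17 UMIs. Restricted to the cluster led by Cd163, 0 of the 6 genes that could be tested were called, a count given without the share of all genes called there. The log2 fold changes were 1.40 for Gclm (limma adjusted p 0.053), 1.21 for Gsr (0.153) and 0.62 for Txnrd1 (0.443), and this cluster held 350 to 750 nuclei per sham heart. Srxn1 could not be tested there. Without the neutrophil cluster, Gclm, Txnrd1 and Gsr were called, and Srxn1 again did not pass the filter. In the same hearts the summed level of 8 injury macrophage markers was 237 to 327 CPM in sham and 1940 to 3630 CPM in I/R, higher in I/R for all 8, with 1 of them at 0 in sham. That of 6 neutrophil markers was 97.3 to 130 and 406 to 904 CPM, and that of 9 cardiomyocyte markers was 6550 to 7760 and 1880 to 3090 CPM. The part of these in the differences was not tested beyond the cluster values above.

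**Figure D2:**
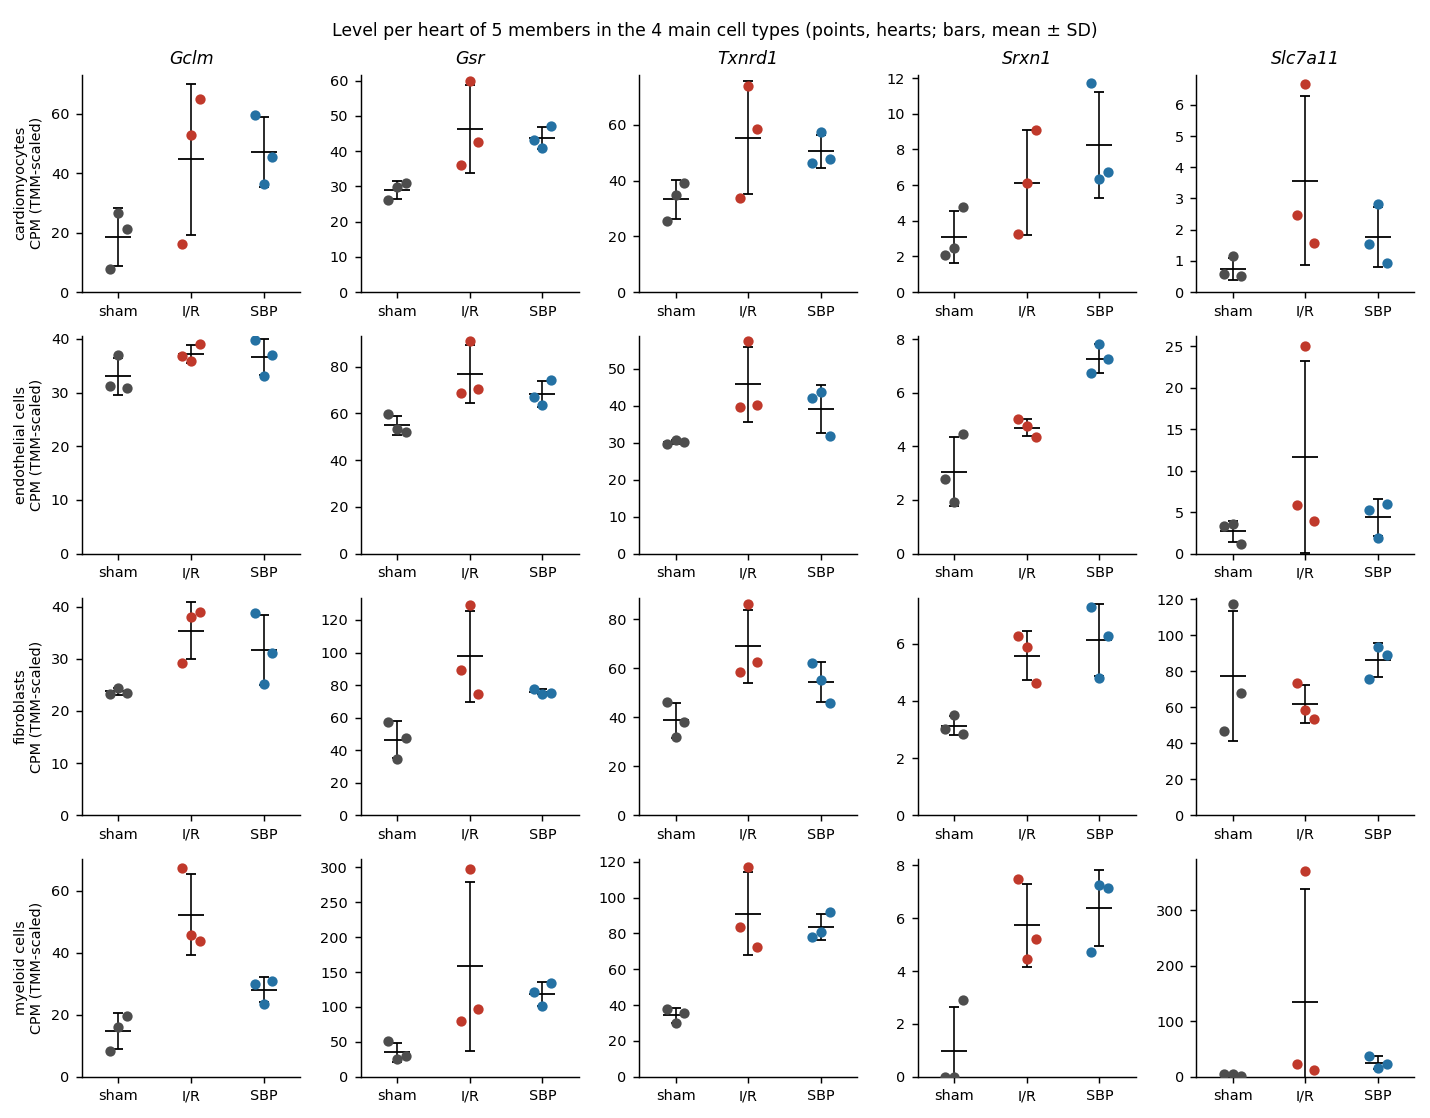
Gclm, Gsr, Txnrd1, Srxn1 and Slc7a11 in cardiomyocytes, endothelial cells, fibroblasts and myeloid cells, as CPM scaled within the type on linear axes that start at 0; points are hearts and bars give the mean ± SD of 3 hearts. In myeloid cells all I/R hearts lie above all sham hearts for each of the 5 genes (20.1% of all genes did so, and Srxn1 and Slc7a11 were tested only through injured hearts), and I/R replicate 2 is far above the rest for Gsr (298 CPM) and Slc7a11 (370 CPM).

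Fibroblasts showed the same 2 reductases. Gsr and Txnrd1 were called higher in I/R, and 0 of the 10 genes lower. Here 10.6% of all genes tested were called and 6.1% were called higher. Gsr was at 57.1, 34.6 and 47.6 CPM in sham and at 89.3, 129 and 74.5 CPM in I/R, without overlap (log2 fold change 1.05, SE 0.22, limma adjusted p 0.0105). Txnrd1 was at 46.3, 31.8 and 38.1 CPM in sham and at 58.5, 86.1 and 62.5 CPM in I/R, also without overlap (log2 fold change 0.81, SE 0.20, limma adjusted p 0.0229). Groups did not overlap, with I/R higher, for 4 of 10 genes, against 13.8% of all genes. The Txnrd1 call was lost with means over nuclei (adjusted p 0.0675), with only the 6 hearts compared (0.0505) and without sham replicate 2 (0.0758), sham replicate 3 (0.071) or I/R replicate 2 (0.0999), within a range of 0.0128 to 0.536. The summed level of the smooth muscle cell and pericyte markers in these fibroblast nuclei was 433 to 807 CPM in sham and 304 to 514 CPM in I/R. With nuclei assigned by marker score, where nuclei scoring highest for those markers were not counted as fibroblasts, both calls held (Gsr 1.15, limma adjusted p 0.00182, and Txnrd1 0.99, limma adjusted p 0.0128). That assignment also moved other nuclei. Of 14309 nuclei in the fibroblast clusters it kept 8384, whereas 1636 scored highest for smooth muscle cell and pericyte markers. Its fibroblast score also uses Col1a2 and Col3a1, which are among the leading genes of the cluster led by Tnc. The part of smooth muscle cells and pericytes alone was not tested.

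Both reductases were higher in the fibroblast cluster led by Tnc, which was all but absent from sham hearts. In I/R, Gsr was at 152 to 231 CPM in that cluster and at 50.8 to 83.8 CPM in the larger cluster with Scara5 among its leading genes, and Txnrd1 was at 105 to 117 and 28.8 to 73.7 CPM. Within the Scara5 cluster neither call held, with log2 fold changes of 0.45 for Gsr (limma adjusted p 0.3) and 0.37 for Txnrd1 (0.536). Slc7a11 went the other way between these clusters, at 12.5 to 38.8 CPM in the Tnc cluster and 61.5 to 116 CPM in the Scara5 cluster of I/R hearts. The clusters were made from these nuclei, so the difference between them is a description.

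The other fibroblast values were not called. Gclm was at 23.3, 24.5 and 23.5 CPM in sham and at 29.2, 38.1 and 39.0 CPM in I/R, a log2 fold change of 0.55 (SE 0.19, limma adjusted p 0.0889, range 0.0136 to 0.253). Srxn1 was at 2.85 to 3.5 CPM in sham and 4.61 to 6.26 CPM in I/R (0.67, SE 0.26, limma adjusted p 0.131). Osgin1 stood lower, at 6.65 to 8.56 CPM in sham and 3.92 to 4.41 CPM in I/R (a log2 fold change of -0.71, SE 0.30, limma adjusted p 0.161). Slc7a11 (-0.23, SE 0.27), Nqo1 (-0.26, SE 0.32), Gclc (-0.23, SE 0.31), Sod2 (0.30, SE 0.27) and Gpx4 (-0.03, SE 0.17) had log2 fold changes within about their SE. In fibroblasts the 8 injury macrophage markers summed to 45.3 to 89.4 CPM in sham (1 of them at 0) and 253 to 671 CPM in I/R, higher in I/R for all 8, and the 9 cardiomyocyte markers to 5220 to 6600 and 1780 to 2780 CPM. Their part in these values was not tested.

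**Figure D3:**
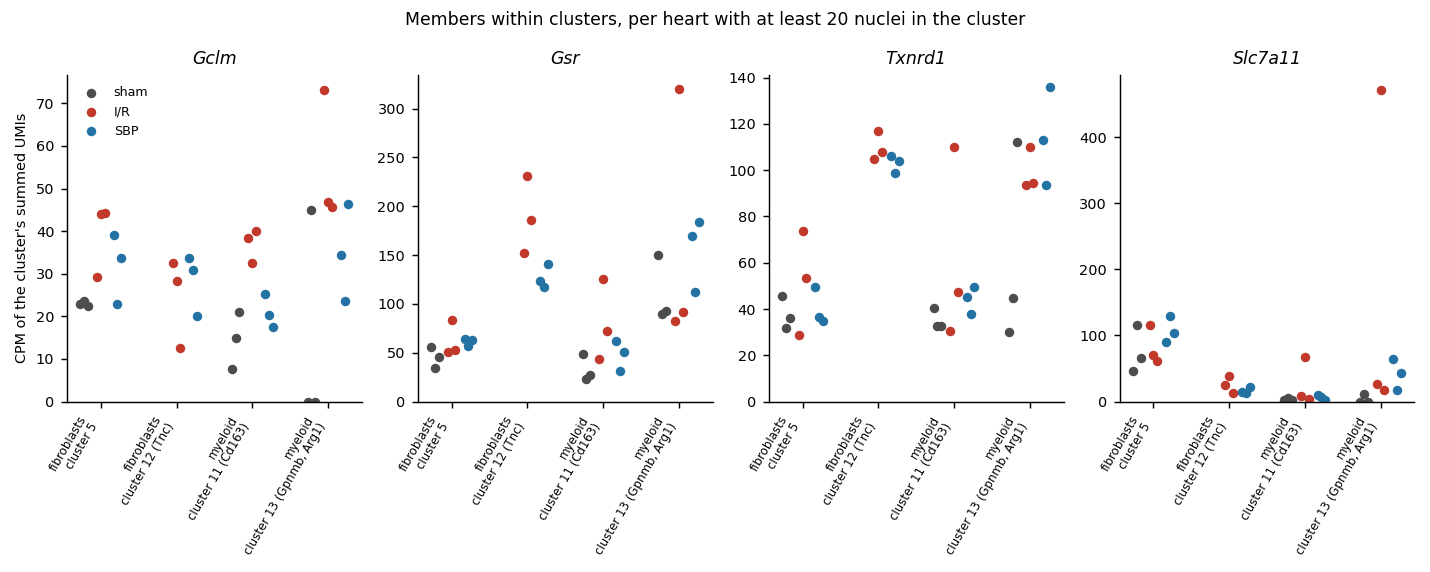
Gclm, Gsr, Txnrd1 and Slc7a11 in 2 fibroblast and 2 myeloid clusters, as CPM of the cluster's summed UMIs; each point is 1 heart with at least 20 nuclei in the cluster, coloured by group, and no sham heart reached 20 nuclei in the Tnc cluster. Gsr and Txnrd1 are higher, and Slc7a11 lower, in the Tnc cluster than in the Scara5 cluster (cluster 5) of I/R hearts.

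In cardiomyocytes 0 of the 10 genes were called by limma, where 0.822% of all genes were. The smallest adjusted p was 0.179. An unadjusted p under 0.05 was found for 1828 of all 12896 genes tested and for 4 of these 10. Leaving aside Slc7a11, which passed the filter through 0 sham hearts, 8 of the other 9 had a positive log2 fold change, against 46.6% of all genes, and their median was 0.63 against -0.03 over all genes. The I/R hearts differed among themselves. Gclm was at 7.74, 26.6 and 21.2 CPM in sham and at 16.1, 52.9 and 64.8 CPM in I/R. Txnrd1 was at 25.7, 34.9 and 39.2 CPM in sham and at 33.8, 73.9 and 58.5 CPM in I/R. In both genes I/R replicate 1 lay within the sham range and the other I/R hearts above it. Gsr was at 26.0, 29.9 and 31.0 CPM in sham and at 36, 60 and 42.6 CPM in I/R, without overlap.

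I/R replicate 1 is the heart whose cardiomyocytes lay mostly in the cluster of sham cardiomyocytes. Without it limma called 3 genes higher, Gclm (log2 fold change 1.77, adjusted p 0.0366), Txnrd1 (0.98, 0.0234) and Gsr (0.79, 0.0337). The share of all genes called in that fit is not given, so the count may not be particular to these genes. With that heart the values were 1.17 (SE 0.53, adjusted p 0.354), 0.67 (SE 0.26, 0.282) and 0.63 (SE 0.19, 0.179). Over all alternatives the adjusted p ran from 0.0366 to 0.755 for Gclm, from 0.0234 to 0.741 for Txnrd1 and from 0.0337 to 0.558 for Gsr. Within that heart Gsr was at 26.7 CPM in the Mhrt cluster and at 62.9 CPM in the Ankrd1 cluster, which held 284 of its nuclei, and Txnrd1 was at 28.8 and 46.4 CPM. Gclm did not follow this split, at 14.8 and 18.5 CPM, whereas it was at 56.3 and 67.3 CPM in the Ankrd1 cluster of I/R replicates 2 and 3. Only Gsr and Slc7a11 had no overlap between the groups with I/R higher, 2 of 10, against 8% of all genes, and Slc7a11 passed the filter on low values through 0 sham hearts, so it was tested only because it was higher with injury.

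Nqo1, the quinone reductase that was highest in this cell type, was at 10.9, 24.8 and 23.1 CPM in sham and at 24.1, 65.3 and 31.9 CPM in I/R. The lowest I/R heart fell just inside the sham range, and the log2 fold change was 0.96 (SE 0.37, limma adjusted p 0.276). Srxn1 (0.77, SE 0.36), Slc7a11 (1.25, SE 0.41) and Osgin1 (0.43, SE 0.33) were positive too, although Slc7a11 was at 0.505 to 1.16 CPM in sham and 1.58 to 6.66 CPM in I/R, which rests on 3 to 8 UMIs per sham heart and 13 to 35 per I/R heart. Sod2, at 89.3 to 127 CPM in sham and 89.0 to 131 CPM in I/R, had a log2 fold change of -0.01 (SE 0.19). Gpx4 (0.16, SE 0.24) and Gclc (0.28, SE 0.27) were also within about their SE. The summed injury macrophage markers in these nuclei were 8.77 to 13.3 CPM in sham and 79.1 to 284 CPM in I/R, higher in I/R for all 8 and highest in I/R replicate 1, and their part in these values was not tested.

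Endothelial cells also had 0 of 10 genes called by limma in I/R against sham, where 3.19% of all genes were called. An unadjusted p under 0.05 was found for 2174 of all 12220 genes tested and for 3 of these 10. Txnrd1 was at 29.5, 30.6 and 30.1 CPM in sham and at 39.6, 57.4 and 40.2 CPM in I/R (a log2 fold change of 0.57, SE 0.19, limma adjusted p 0.125). Gsr was at 52.0 to 59.5 CPM in sham and 68.8 to 91.0 CPM in I/R (0.47, SE 0.15, limma adjusted p 0.118). Both genes had all I/R hearts above all sham hearts, as did Slc7a11, 3 of 10 against 10.8% of all genes. Slc7a11 was at 1.22 to 3.54 CPM in sham and at 5.92, 25.0 and 3.98 CPM in I/R (1.45, SE 0.60, limma adjusted p 0.227), again with replicate 2 far above the others, and it passed the filter through 0 sham hearts. Gclm was at 33.0 ± 3.45 CPM in sham and 37.3 ± 1.68 CPM in I/R (0.17, SE 0.15). The other 6 genes had log2 fold changes of -0.23 to 0.54.

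Whether the I/R change differed between cell types was tested directly for each pair of types. Between endothelial and myeloid cells it differed for 2 genes, Gclm (endothelial minus myeloid -1.65 on the log2 scale, SE 0.29, limma adjusted p 0.0222) and Srxn1 (-1.54, SE 0.34, limma adjusted p 0.0402), against 3.11% of all genes tested for this pair. The Gclm difference was lost without sham replicate 2 (adjusted p 0.0628) or I/R replicate 2 (0.0795), within a range of 0.0234 to 0.0824 over the alternatives. That of Srxn1 was lost without sham replicate 1 (0.0918), sham replicate 2 (0.106) or SBP replicate 1 (0.0578), within a range of 0.0193 to 0.115. In the other 5 pairs limma called 0 genes. Over all genes, 0.0352% were called between cardiomyocytes and endothelial cells, 1.73% between cardiomyocytes and fibroblasts, 5.32% between cardiomyocytes and myeloid cells, 0.516% between endothelial cells and fibroblasts and 6.78% between fibroblasts and myeloid cells. The nearest to the threshold were Gclm between fibroblasts and myeloid cells (-1.28, SE 0.34, limma adjusted p 0.0509) and Gsr between myeloid cells and either endothelial cells (-1.47, SE 0.36, limma adjusted p 0.0572) or cardiomyocytes (-1.31, SE 0.36, limma adjusted p 0.0612). Both Gsr differences were called when 1 heart was left out, the first without I/R replicate 1 (adjusted p 0.0418) and the second without sham replicate 1 (0.0483). Between fibroblasts and myeloid cells the same held for Gsr without I/R replicate 1 (0.0425), Srxn1 without sham replicate 3 (0.0118) and Slc7a11 without I/R replicate 3 (0.0476). Srxn1 was tested in myeloid cells only because it was higher with injury there, and its difference was kept in 3 of 8 alternatives, so it is given as a value and not as a firm difference.

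**Figure D4:**
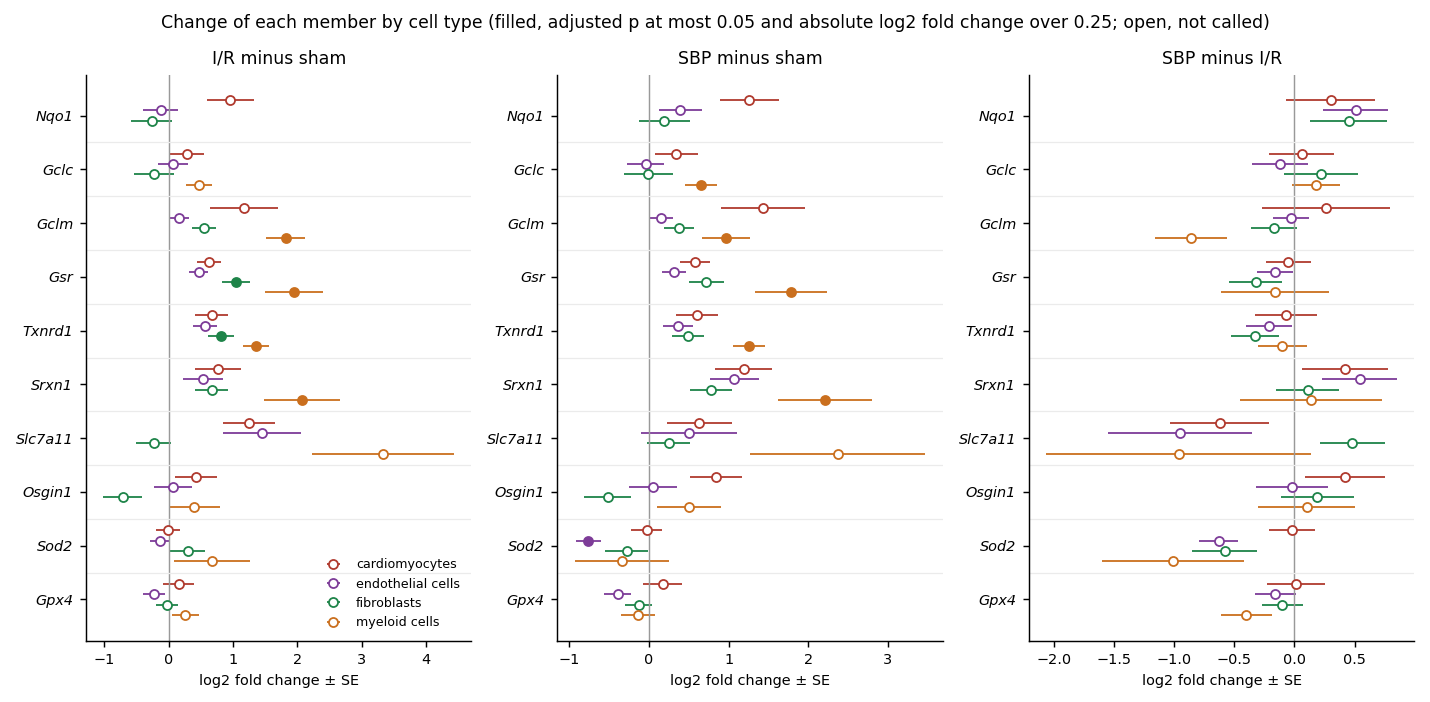
Log2 fold change ± SE of the 10 genes in 4 cell types for I/R minus sham, SBP minus sham and SBP minus I/R, on log2(CPM + 1); filled points were called by limma and open points were not. Nqo1 was not tested in myeloid cells, and no point is filled for SBP minus I/R.

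SBP was compared with I/R to ask whether pre-treatment altered these genes in hearts with the same injury. Of the 10 genes, limma called 0 in cardiomyocytes, endothelial cells, fibroblasts or myeloid cells, and 0% of all genes were called in each of the 4 types. In the same order, an unadjusted p under 0.05 was found for 273 of 12896, 634 of 12220, 458 of 13194 and 419 of 10911 genes tested. Among the 10 genes, 0, 1, 0 and 1 had one. The first was Sod2 in endothelial cells, at 72.9, 96.2 and 80.0 CPM in I/R and at 51.4, 55.1 and 52.7 CPM in SBP. All SBP hearts lay below all I/R hearts, with a log2 fold change of -0.63 (SE 0.16, p 0.00203, limma adjusted p 0.946). The second was Gclm in myeloid cells, at 67.3, 45.8 and 43.9 CPM in I/R and at 30.0, 23.5 and 30.8 CPM in SBP, also without overlap (log2 fold change -0.86, SE 0.30, p 0.0127, limma adjusted p 1).

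Genes without overlap between SBP and I/R were 0 of 10 in cardiomyocytes (5.55% of all genes), 2 of 10 in endothelial cells (9.39%), 1 of 10 in fibroblasts (8.17%) and 1 of 9 in myeloid cells (8.99%). Besides Sod2 and Gclm these were Srxn1 in endothelial cells, at 4.35 to 5.01 CPM in I/R and 6.75 to 7.81 CPM in SBP (log2 fold change 0.54, SE 0.31), and Slc7a11 in fibroblasts, at 53.3 to 73.5 CPM in I/R and 75.7 to 93.6 CPM in SBP (0.48, SE 0.27). The study, by its own test at a Q value of at most 0.05, lists Sod2 as lowered by SBP in endothelial cells and in fibroblasts. In fibroblasts here Sod2 was at 48.9, 124 and 82.8 CPM in I/R and at 61.9, 46.0 and 52.0 CPM in SBP. The groups overlapped (log2 fold change -0.58, SE 0.27, limma adjusted p 0.999). Neither reductase was called. Txnrd1 had log2 fold changes of -0.07 (SE 0.26) in cardiomyocytes, -0.21 (SE 0.19) in endothelial cells, -0.33 (SE 0.20) in fibroblasts and -0.10 (SE 0.20) in myeloid cells. Gsr had -0.05 (SE 0.19), -0.16 (SE 0.15), -0.32 (SE 0.22) and -0.16 (SE 0.45).

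SBP was also compared with sham, which shares its sham hearts with the comparison of I/R and sham. In myeloid cells, 5 of 9 genes were called higher and 0 lower, where 12.7% of all genes were called and 7.30% were called higher. Txnrd1 was at 78.1, 80.9 and 91.7 CPM in SBP, above the 29.8 to 37.7 CPM of sham (log2 fold change 1.26, SE 0.20, limma adjusted p 0.00157). Gsr was at 121, 101 and 135 CPM in SBP against 25.6 to 50.9 CPM in sham (1.78, SE 0.45, limma adjusted p 0.0339). Srxn1, at 4.74, 7.25 and 7.16 CPM in SBP, was called too (2.21, SE 0.59, limma adjusted p 0.0284), with the limits of few UMIs given above. Groups did not overlap, with SBP higher, for 6 of the 9 genes, against 19.3% of all genes, but the 6 include Srxn1 and Slc7a11, which passed the filter through 0 sham hearts and so were tested only because they were higher with injury. Of the 7 genes that passed it in a sham heart, 4 did not overlap and 4 were called.

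Gclm, at 30.0, 23.5 and 30.8 CPM in SBP against 8.20 to 19.5 CPM in sham, had a log2 fold change of 0.97 (SE 0.30, limma adjusted p 0.0495). Gclc was at 53.7, 50.1 and 59.5 CPM in SBP against 31.1 to 37.7 CPM in sham (0.65, SE 0.20, limma adjusted p 0.0497). Both lay just inside the threshold, and the calls did not survive most alternatives, with 5 of 21 keeping Gclm (adjusted p 0.0372 to 0.477) and 7 of 21 keeping Gclc (0.0267 to 0.635). Leaving out single hearts left 1 to 5 of the 5 calls. Txnrd1 was called without any 1 heart, whereas Gsr was lost without sham replicate 2 (adjusted p 0.11), sham replicate 3 (0.0866) or SBP replicates 1 (0.083), 2 (0.0906) or 3 (0.108), and Srxn1 without sham replicate 1 (0.068) or 2 (0.0732). Gclm was lost without sham replicates 1 (0.149) or 2 (0.0697), I/R replicate 3 (0.0559) or SBP replicates 1 (0.116), 2 (0.0882) or 3 (0.139), and Gclc without any sham (0.0694, 0.106 and 0.13) or SBP heart (0.0955, 0.0996 and 0.155). Within the Cd163 cluster 0 were called, again without the share of all genes called there.

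Slc7a11 was at 37.9, 15.4 and 23.6 CPM in SBP myeloid cells, above the 2.17 to 5.12 CPM of sham in every heart (log2 fold change 2.37, SE 1.10, limma adjusted p 0.2). Its SE is shared with I/R replicate 2, and without that heart the value was 2.36 with a limma adjusted p of 0.00209, within a range of 0.000947 to 0.349. The summed injury macrophage markers of these nuclei were 1590 to 2620 CPM in SBP against 237 to 327 CPM in sham, and the neutrophil markers 282 to 340 against 97.3 to 130 CPM.

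In endothelial cells 1 of 10 genes, Sod2, was called lower in SBP than in sham, where 2.17% of all genes were called and 1.49% were called lower. It was at 74.6, 93.3 and 106 CPM in sham and at 51.4, 55.1 and 52.7 CPM in SBP (log2 fold change -0.76, SE 0.16, limma adjusted p 0.0362), while the I/R hearts, at 72.9 to 96.2 CPM, overlapped the sham range, with I/R replicate 1 just below its lowest heart. The call was lost with cell types by marker score (adjusted p 0.183) and without sham replicate 2 (adjusted p 0.134), sham replicate 3 (0.154) or any SBP heart (0.131, 0.0755 and 0.115), within a range of 0.0192 to 0.183. Sod2 was highest in cardiomyocytes, and the 9 cardiomyocyte markers in endothelial nuclei summed to 8280 to 10500 CPM in sham, 3190 to 5640 CPM in I/R and 2940 to 3990 CPM in SBP, lower in I/R than in sham for all 9. Their part in the Sod2 difference was not tested. The other 9 genes were not called, and Srxn1, at 1.93 to 4.47 CPM in sham and 6.75 to 7.81 CPM in SBP, had a log2 fold change of 1.07 (SE 0.31, limma adjusted p 0.107).

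In cardiomyocytes limma called 0 of 10 genes in SBP against sham, where 0.140% of all genes were called. An unadjusted p under 0.05 was found for 1735 of all 12896 genes tested and for 6 of these 10. The same number had all SBP hearts above all sham hearts (Nqo1, Gclm, Gsr, Txnrd1, Srxn1 and Osgin1), 6 of 10, against 10.7% of all genes. Nqo1 was at 53.9, 45.3 and 39.6 CPM in SBP against 10.9, 24.8 and 23.1 CPM in sham (log2 fold change 1.26, SE 0.37, limma adjusted p 0.189, range 0.0467 to 0.513). Gclm was at 59.6, 36.2 and 45.4 CPM in SBP (1.43, SE 0.53, limma adjusted p 0.286). Srxn1 was at 11.7, 6.35 and 6.76 CPM against 2.08, 2.45 and 4.75 CPM in sham (1.19, SE 0.36, limma adjusted p 0.199). In the SBP hearts 83.8% to 98.9% of cardiomyocytes lay in the Ankrd1 cluster, against 8.43% to 17.8% in sham. Within the Ankrd1 cluster alone, which held 149, 120 and 264 nuclei in the sham hearts, limma also called 0 of these genes. That count is given without the share of all genes called there.

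In fibroblasts limma called 0 of 10 genes in SBP against sham, where 5.23% of all genes were called. An unadjusted p under 0.05 was found for 2529 of all 13194 genes tested and for 3 of these 10. Gsr was nearest, at 77.6, 74.6 and 75.3 CPM in SBP, above the 34.6 to 57.1 CPM of sham (log2 fold change 0.72, SE 0.22, limma adjusted p 0.088). It was called without I/R replicate 2 (adjusted p 0.0495) or I/R replicate 3 (0.0494), within a range of 0.0242 to 0.342. Txnrd1 was at 45.9 to 62.2 CPM in SBP (0.49, SE 0.20, limma adjusted p 0.203) and overlapped sham, and Srxn1 was at 4.80 to 7.30 CPM (0.78, SE 0.26, limma adjusted p 0.123).

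Other genes of the pathway were read from a list of 74 grouped by role, all of them measured. In I/R against sham, limma called 12 higher and 5 lower of 62 tested in myeloid cells, 7 higher and 3 lower of 73 in fibroblasts, 2 higher and 2 lower of 72 in endothelial cells and 2 higher and 0 lower of 72 in cardiomyocytes. Over all genes 17.6%, 10.6%, 3.19% and 0.822% were called in these types. The median log2 fold changes of the list (0.20, 0.01, 0.01 and 0.04) lay close to those of all genes (0.07, 0.00, -0.01 and -0.03). Hmox1, the heme oxygenase and a strongly inducible NRF2 target, was called higher in all 4 types. In myeloid cells it was at 16.4, 15.3 and 15.9 CPM in sham and at 343, 114 and 156 CPM in I/R (a log2 fold change of 3.44, SE 0.33, limma adjusted p 0.000128). In the other types the log2 fold changes were 3.73 (endothelial cells), 3.71 (cardiomyocytes) and 3.35 (fibroblasts), against sham levels of 0.189 to 2.85 CPM (1 to 9 UMIs per heart), and these calls held under every alternative run. In cardiomyocytes and endothelial cells no sham heart reached the filter on low values (1.54 and 4.09 CPM), so that Hmox1 was tested there only through the injured hearts, and the size of its fitted fold change depends on the pseudocount. Injury macrophage markers were higher in I/R in these nuclei too, with endothelial sums of 122 to 164 CPM in sham and 332 to 1120 CPM in I/R, and their part was not tested. Ftl1, the ferritin light chain, was also called in all 4 types, with log2 fold changes of 1.62 in myeloid cells, 1.52 in fibroblasts, 1.49 in endothelial cells and 1.05 in cardiomyocytes. The endothelial call was lost without sham replicate 2 (adjusted p 0.0609), and the cardiomyocyte call without any sham heart (0.0967, 0.0708 and 0.0789) or I/R replicate 2 (0.058), with only the 6 hearts compared (0.0613) and within the Ankrd1 cluster (log2 fold change 0.61, adjusted p 0.205).

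The myeloid list also held Fth1 (ferritin heavy chain, log2 fold change 1.52), the thiol carriers Glrx (1.49) and Txn1 (1.28), and, lower, Ephx1 (microsomal epoxide hydrolase, -2.00). Within the Cd163 cluster Fth1 (0.87, limma adjusted p 0.0589), Txn1 (0.84, 0.239) and Ephx1 (-1.14, 0.126) were not called. In fibroblasts the pentose phosphate enzyme Pgd rose by 1.22 and the glutathione peroxidase Gpx1 by 1.13 on the log2 scale, while Ephx1 fell by 1.77 and the aldehyde dehydrogenase Aldh2 fell by 0.93. Aldh2 was not called without sham replicate 3 (adjusted p 0.0602) or within the Scara5 cluster (log2 fold change -0.54, adjusted p 0.0995). In endothelial cells Ephx1 (-0.73) was called lower, but not without sham replicate 2 (adjusted p 0.0681) or I/R replicate 2 (0.0542), and Idh2, a mitochondrial source of NADPH, was called lower (-0.86). The Idh2 call was kept under 11 of 20 alternatives and lost without any sham heart (0.0587, 0.14 and 0.151), I/R replicates 1 (0.0859) or 2 (0.159) or SBP replicates 1 (0.0568) or 3 (0.0671), with only the 6 hearts compared (0.0618) and with cell types by marker score (0.0717). Ephx1, commonly counted among NRF2 targets, was at 41.0, 44.3 and 51.3 CPM in sham myeloid cells and at 10.6, 8.6 and 13 CPM in I/R.

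Of the pathway's own regulators, 10 were on the list. In I/R against sham limma called 2 of 39 tests of a regulator in a cell type, and 0 in the other comparisons. Over all genes, 17.6% were called in myeloid cells, 10.6% in fibroblasts, 3.19% in endothelial cells and 0.822% in cardiomyocytes in I/R against sham. The count of 2 of 39 lay within these shares. The 4 genes named here were chosen after their values were seen. Bach1, a repressor that competes with NRF2 for its sites, was at 49.7, 49.0 and 44.1 CPM in sham fibroblasts and at 65.2, 106 and 88.8 CPM in I/R (a log2 difference of 0.82, SE 0.18, limma adjusted p 0.0132). The call was lost without sham replicate 3 (adjusted p 0.055) or I/R replicate 2 (0.0614) and within the Scara5 cluster (0.36, 0.505). Mafg, a small MAF partner of NRF2, was at 108, 79.3 and 106 CPM in sham myeloid cells and at 133, 150 and 176 CPM in I/R (a log2 difference of 0.64, SE 0.17, limma adjusted p 0.0196). It was lost without sham replicate 2 (adjusted p 0.076) or I/R replicate 3 (0.0612), with cell types by marker score (0.0614) and within the Cd163 cluster (0.13, 0.84). Nfe2l2 and Keap1 were not called in any type. In I/R against sham, the log2 fold change of Nfe2l2 was 0.12 (SE 0.27) in cardiomyocytes, -0.41 (SE 0.21) in endothelial cells, -0.29 (SE 0.25) in fibroblasts and 0.20 (SE 0.22) in myeloid cells. That of Keap1 was -0.16 (SE 0.18), -0.48 (SE 0.19), 0.01 (SE 0.17) and 0.55 (SE 0.19), with a smallest limma adjusted p of 0.0614 in myeloid cells. Single hearts moved 2 of these Nfe2l2 and Keap1 values across the threshold, Nfe2l2 in endothelial cells without I/R replicate 3 (-0.67, limma adjusted p 0.044) and Keap1 in myeloid cells without sham replicate 2 (0.71, limma adjusted p 0.0406).

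In SBP against I/R, limma called 0 of the pathway genes tested in each of the 4 types. In cardiomyocytes, endothelial cells, fibroblasts and myeloid cells, 2, 9, 8 and 4 of them had an unadjusted p under 0.05. Over all genes tested, 273 of 12896, 634 of 12220, 458 of 13194 and 419 of 10911 had one. In SBP against sham limma called 6 higher and 3 lower of 62 in myeloid cells. In fibroblasts it called 4 higher and 1 lower of 73. Of 72 in each of the other types, it called 1 higher and 1 lower in endothelial cells and 1 higher in cardiomyocytes. Over all genes these shares were 12.7%, 5.23%, 2.17% and 0.140%. The share of the list was near that of all genes in myeloid cells, fibroblasts and endothelial cells, and the call in cardiomyocytes was a single gene, Hmox1. The calls of Sod3 (extracellular superoxide dismutase) in fibroblasts, kept in 8 of 20 alternatives, and Glrx in myeloid cells, kept in 6 of 20, were lost under most. Txn2, the mitochondrial thioredoxin, was called lower in endothelial cells (-0.85) in 13 of 20, and not without any sham heart (adjusted p 0.0785, 0.134 and 0.0724) or SBP replicates 1 (0.11) or 3 (0.112), or with cell types by marker score (0.0707). Hmox1 was higher in each type, at 117, 87.9 and 134 CPM in myeloid cells (log2 fold change 2.73), and by 2.22 in fibroblasts, 2.05 in endothelial cells and 2.87 in cardiomyocytes. In endothelial cells and cardiomyocytes no sham heart reached the filter on low values, so Hmox1 was tested there only through the injured hearts. It was called under all alternatives run in myeloid cells and fibroblasts, under 12 of 20 in endothelial cells and under 14 of 20 in cardiomyocytes. The endothelial call was lost without any sham heart (adjusted p 0.101, 0.136 and 0.112) or SBP heart (0.061, 0.111 and 0.146), and with a pseudocount of 5 (log2 fold change 1.22, adjusted p 0.144). With that pseudocount the cardiomyocyte value was 1.43 (0.0867) and not called. The cardiomyocyte call was also lost without sham replicates 1 (0.108) or 3 (0.109) or SBP replicates 1 (0.0726) or 3 (0.0813) and within the Ankrd1 cluster (0.0764). Ephx1 in myeloid cells, at 22.1, 12.1 and 18.6 CPM, was below sham (-1.36, limma adjusted p 0.00531), but not called within the Cd163 cluster (-0.81, limma adjusted p 0.346).

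Finally, the genes whose pattern over 36 sums (9 hearts in 4 cell types) was most like that of each member were listed among 10108 genes tested in all 4 types. This is a description, since sums of 1 heart share a library, and Nqo1 was not included because it was not tested in myeloid cells. The sums were on the scale over all types, so differences in level between cell types enter each r. Gclm was most like Srxn1, another of the 10 (Pearson's r = 0.79), and Gpx4 was most like Sod1, the cytosolic superoxide dismutase (0.87). Gsr followed Arg1 (0.86) and Il1r2 (0.85), which are among the leading genes of the Gpnmb and neutrophil-led clusters. Slc7a11 followed Vcan (0.92) and Glipr2 (0.91), Sod2 followed Gm16685 (0.86) and Dld (0.84), and Txnrd1 followed Piwil2 (0.85) and Uhrf1bp1l (0.84). Srxn1 followed Braf (0.83) and Arih1 (0.80), Gclc followed Swt1 (0.73) and Top1 (0.68), and Osgin1 followed Tox4 (0.67) and Xrn2 (0.66).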

How the data were processed

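Hearts of 9 mice in 3 groups (sham, I/R and SBP) were profiled by sNuc-seq with a 3' droplet kit. The submitters' processing notes name Cell Ranger 4.0, STAR and Seurat 3.2.0 with GRCm38; the study's methods name other releases and also describe down-sampling reads and removing nuclei with few genes or a high mitochondrial share. As deposited by the authors, each value is a natural log, ln(1 + 10000 × UMIs of a gene / UMIs of the nucleus). The log was undone and UMIs were recovered, at least 99.999375% of values within 0.1 of a whole number. No mitochondrial gene was in the tables. The deposited tables hold 49171 nuclei, all with at least 405 genes, fewer than the study describes.

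Nuclei were clustered with scanpy 1.11.5 (2000 variable genes, 30 components, 20 neighbours, Leiden resolution 0.5) and clusters were named from at least 3 detected markers. Names stand for nuclei like the type. The doublet caller marked 85 nuclei (0.173%), under 0.5%, and was taken as not having worked. The marked nuclei were removed after clustering. UMIs were summed per heart and type, TMM-scaled and tested as log2(CPM + 1) with limma 3.58.1 (trend, robust) over all 9 hearts, with Benjamini-Hochberg adjustment over all genes that reached, in at least 3 hearts, the CPM equal to 10 UMIs at median depth, and 15 UMIs in all. The deposited unit is a log, and no count test was run on the recovered UMIs. The differences between cell types were tested with the same tool on the differences within hearts. Overlapping genes could share reads with Gclm, Gsr, Txnrd1 and Slc7a11, and Gpx4 has a pseudogene. Whether counting used strand is not given in the sources used here.

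The 10 genes and the lists were chosen with earlier results of these data known. All 10 are named in each type. Of the pathway list, up to 6 called genes with the largest change per type and comparison could be named, and the 2 genes most correlated with each member. Alternatives covered scaling, the filter, the pseudocount (0.5 and 5 in place of 1), means over nuclei, marker-score cell types, kept doublets, only the 6 hearts compared, the replicate block and leaving out each heart. Fits within 1 cluster and without the neutrophil cluster were added after the data were seen. The share of all genes called within 1 cluster is not given, so a call lost there may not be particular to these genes. That mice in a group were separate animals is taken from the study, since the labels give only replicate numbers.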

Additional observations from a re-analysis of the deposited data

Results flagged for a closer look

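The I/R against sham change of Gclm differed between cell types by a test of the difference itself. Its change in endothelial cells minus that in myeloid cells was -1.65 on the log2 scale (SE 0.29, limma adjusted p 0.0222). Endothelial levels were 30.9 to 37.0 CPM in sham and 35.8 to 39.1 CPM in I/R, and myeloid levels 8.20 to 19.5 and 43.9 to 67.3 CPM. The sham myeloid values rest on 5, 19 and 27 UMIs. The Gclm difference was called under 9 of 13 alternatives. For Srxn1 the same difference passed the threshold but is not a firm one. It was -1.54 (SE 0.34, limma adjusted p 0.0402), with endothelial levels of 1.93 to 4.47 and 4.35 to 5.01 CPM and myeloid levels of 0 to 2.89 and 4.47 to 7.50 CPM. It was called under 3 of 8 alternatives and rests on 4 UMIs in sham myeloid cells, where Srxn1 passed the filter on low values through 0 sham hearts and so was tested only because it was higher with injury. Groups of 3 hearts were not tested for outlying samples.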

How the results depend on the processing

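Of the main results and counts, 272 of the values under alternatives stayed within their limits and 51 moved, and among the single genes and neighbouring pairs 3267 stayed, 140 moved, 160 lost a call, 24 gained one and 3 reversed. Leaving out 1 heart at a time, the members called in I/R against sham numbered 0 to 3 in cardiomyocytes, 1 to 2 in fibroblasts and 2 to 4 in myeloid cells. In SBP against sham they numbered 0 to 1 for endothelial cells, 0 to 1 for fibroblasts and 1 to 5 for myeloid cells. The members whose change differed between types numbered 0 to 2 for endothelial and myeloid cells, 0 to 1 for cardiomyocytes and myeloid cells and 0 to 1 for fibroblasts and myeloid cells. In I/R against sham, fibroblast calls fell to 1 with means over nuclei, 1 with only the 6 hearts compared and 0 within 1 cluster, and myeloid calls to 0 within 1 cluster. In SBP against sham, only the 6 hearts gave 1 call in cardiomyocytes and 1 in fibroblasts, and cell types by marker score gave 0 for endothelial cells, 1 for fibroblasts and 2 for myeloid cells. Myeloid calls there were 3 with total UMIs, 3 with median-of-ratios scaling, 3 without the filter, 3 with a pseudocount of 0.5, 3 with means over nuclei, 3 without the neutrophil cluster and 0 within 1 cluster. Without the filter 0 differences between endothelial and myeloid cells were called, and 0 with means over nuclei. Neighbouring cell types that differed numbered 6 with total UMIs and 5 with means over nuclei. For Gclc, fibroblasts minus cardiomyocytes became 0.62 with total UMIs and 0.70 with means over nuclei, against 0.00, and cardiomyocytes minus endothelial cells became -0.58 with total UMIs, against 0.06. The main scale over all types multiplied cardiomyocyte levels by 1.49 to 1.73 and those of the other main types by 0.962 to 1.1. Total UMIs apply no such factor. The cause of the other moves was not tested. With the replicate number as a block, myeloid calls in SBP against sham were 2, with Gsr, Gclm and Gclc lost, and the member counts of the other comparisons did not move past their limits. The block also ended the SBP against sham calls of Hmox1 (adjusted p 0.0933) and Txn2 (0.0613) in endothelial cells, Ephx1 (0.0508) and Sod3 (0.0546) in fibroblasts and Glrx (0.0582) in myeloid cells. The numbers were not taken to pair the hearts. Same-number deviations correlated at -0.317 to 0.283 (mean -0.003, 10 of 36 pairs over 0.1). Different-number deviations correlated at -0.231 to 0.379 (mean 0.002, 19 of 72 pairs over 0.1). Likeness between hearts of different groups, other than by number, was not modelled. Scarce genes such as Srxn1 are limited by depth.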
